A study of Arabidopsis thaliana with 7 samples.

Results

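The genes described here lie in a stretch of Arabidopsis thaliana chromosome 1 that begins 10.2 kb past the end of the MRD1 locus and ends at position 21000000 on TAIR10. Members were every gene in the authors' FPKM files whose whole locus lay between positions 19980001 and 21000000, and 308 of the 33557 genes with a locus met this rule. The first member started at 19980462 and the last ended at 20993072. Members were selected on position, but the place was chosen by the fall of MRD1 just outside it in the same hon45 libraries against WT, with results for these genes known. The counts of changed members are therefore a description, and no test was made over the members as a list.

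Poly(A) RNA was sequenced from whole hon45 mutant seedlings and whole Col-0 wild-type (WT) seedlings, with 2 libraries of each. Both genotypes were grown on MS agar at 22 °C in long days (16 h light) and sampled 10 days after germination. The labels give neither the alleles nor the background of hon45, and without single mutants the part of HON4 cannot be told from that of HON5. They also do not say whether libraries of a genotype came from separate cultures, so the p-values measure the spread between these samples, which may be technical.

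HON4 and HON5 belong to a plant protein family with a globular domain like that of linker histones, joined to AT-hook motifs that bind the minor groove of AT-rich DNA. Proteins of this kind sit on chromatin and can influence how DNA is folded and how accessible it is. Neighbouring plant genes can share a chromatin state, and tandem gene families, which arise by local duplication, can share promoters of similar sequence. The comparison here therefore asks whether genes that differed between hon45 and WT lay closer together in this stretch than elsewhere on the chromosome.

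The libraries held 53858439 to 63543079 counts each. HON5, which lies on the same chromosome 2 Mb before the stretch, stood at 14.0 and 15.9 CPM in hon45 against 97.7 and 91.7 CPM in WT, where CPM is the TMM-scaled count relative to library size. MRD1 stood at 0.728 and 0.647 CPM in hon45 against 40.7 and 38.3 CPM in WT, and the lncRNA gene AT1G07887 and HEI10, which overlap it, fell too, so that reads of these genes cannot be told apart. The shoot markers RBCS1A, LHCB1.3, LHCB2.1 and PSAG were abundant in every library, as was the root marker PYK10. The seed markers CRA1 and CRC and the flower and pollen markers AP3, PI and VGD1 stayed at or under 1.92 CPM of the library total. Of the 4 root markers TIP2;3, EXP7 and CASP1 were lower in hon45 (log2 fold changes of -0.57, -0.47 and -0.51, edgeR adjusted p = 0.00656, 0.016 and 0.0123), while PYK10 stood at 0.25 and was not called (edgeR adjusted p = 0.54). The part of these differences in the results below was not tested, and in whole seedlings fewer cells of a type and less RNA per cell cannot be told apart.

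With all 4 libraries, changes in hon45 were about as frequent in the stretch as in the whole table. Of the 308 members 283 had counts and 276 passed the filter on low counts, which kept members from 0.171 to 1872 CPM on average. Among these 276, 8 rose and 5 fell in hon45, together 4.71%, by the edgeR quasi-likelihood (QL) test with an adjusted p under 0.05 over all 29226 tested genes. Over all tested genes 4.1% were called, with 2.48% higher and 1.63% lower in hon45. The members' median log2 fold change was -0.0032, against -0.039 for all tested genes. Of the 276, 137 lay above 0 (49.6%), against 44.7% of all tested genes. The hon45 libraries did not overlap the WT libraries in 135 members, 48.9% of them, against 49.3% of all tested genes. An unadjusted p under 0.05 was found for 51 members (18.5%), against 17.9% of all tested genes. Of the 13 calls 4 were changes of under 1.5-fold. An absolute log2 fold change of 1 or more was reached by 5 of the 276 members, against 2.46% of all tested genes. Of these 5 members 3 were also called (1.09% of the 276), against 0.366% of all tested genes. All 3 were falls, as were 89 of the 107 such calls over all tested genes.

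The stretch was then set beside other 1 Mb windows of chromosome 1, laid outward from both of its ends. There were 28 other windows with at least 50 tested genes. Their called share ran from 1.38% to 6.1%, with a median of 3.93%, and the stretch, at 4.71%, exceeded 21 of them and lay below 7. In the window just before it, which holds the MRD1 locus, 13 of 250 tested genes were called (5.2%). These 13 include MRD1, whose fall placed the stretch, and HEI10, which overlaps MRD1. In the window just after the stretch 7 of 198 were called (3.54%). The longer interval between the HON5 and MRD1 loci had 21 called genes of 491 (4.28%). The highest share belonged to the window from 24000001 to 25000000, with 15 of 246 genes, and the lowest to that from 27000001 to 28000000, with 4 of 289. More falls than the 5 of the stretch were found in 3 windows and more rises than its 8 in 4 windows. These counts are a description, and no test of the windows was made.

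**Figure D1:**
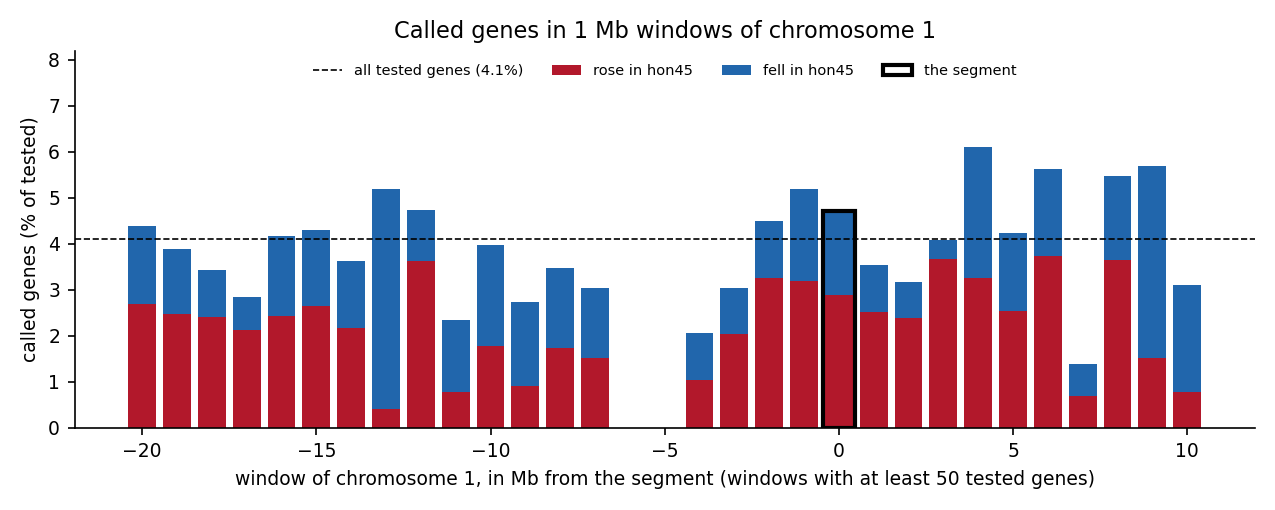
Percentage of tested genes called in each 1 Mb window of chromosome 1, split into genes that rose (red) and fell (blue) in hon45 against WT, by distance of the window from the stretch (Mb). The outlined bar is the stretch at 4.71%, the dashed line is the share over all tested genes (4.1%), and 7 of the 28 other windows stand higher.

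The number of calls, their directions and the comparison with the whole table depended on single libraries. A fit without 1 library leaves 1 library of that genotype, which is then assumed to vary like those of the other genotype, and this holds for every such p given below. Members said below to pass without WT replicate 2 passed in none of the other fits without 1 library. Without hon45 replicate 2 the test called 4 members, 1 higher and 3 lower in hon45, or 1.45% against 0.393% of all tested genes. Without hon45 replicate 1 it called 8, 2 higher and 6 lower, or 2.9% against 1.45% of all tested genes. Without WT replicate 2 it called 41, or 14.9% against 12.8%, and without WT replicate 1 it called 10, or 3.62% against 3.1%. Over all tested genes 60.4% of the calls were higher in hon45, against 42.3% without hon45 replicate 1 and 31.1% without hon45 replicate 2. The place of the stretch among the windows moved with this: without hon45 replicate 1 its share was level with that of the highest other window, both 2.9%, and it was exceeded by 1 window without hon45 replicate 2, at 1.45%. It ranked 7 without WT replicate 2 and 11 without WT replicate 1 among the 29 windows. DESeq2 called 9 members, or 3.18% against 3.26% of all genes to which it gave a p-value, and placed the stretch at rank 17. Of these 9 members 7 were higher and 2 lower in hon45, where 73.3% of all its calls were higher. It gave 4 of the 13 members called by edgeR no adjusted p.

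The first 200 kb held 7 of the 13, 3 rises and 4 falls among 62 tested members, or 11.3% beside 4.1% of all tested genes. From 800 kb onward none of 56 tested members was called by edgeR or by DESeq2, beside 4.1% of all tested genes called by edgeR. An unadjusted p under 0.05 was found for 10 of the 56, beside 17.9% of all tested genes. These divisions were chosen after the values were seen and carry no test.

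**Figure D2:**
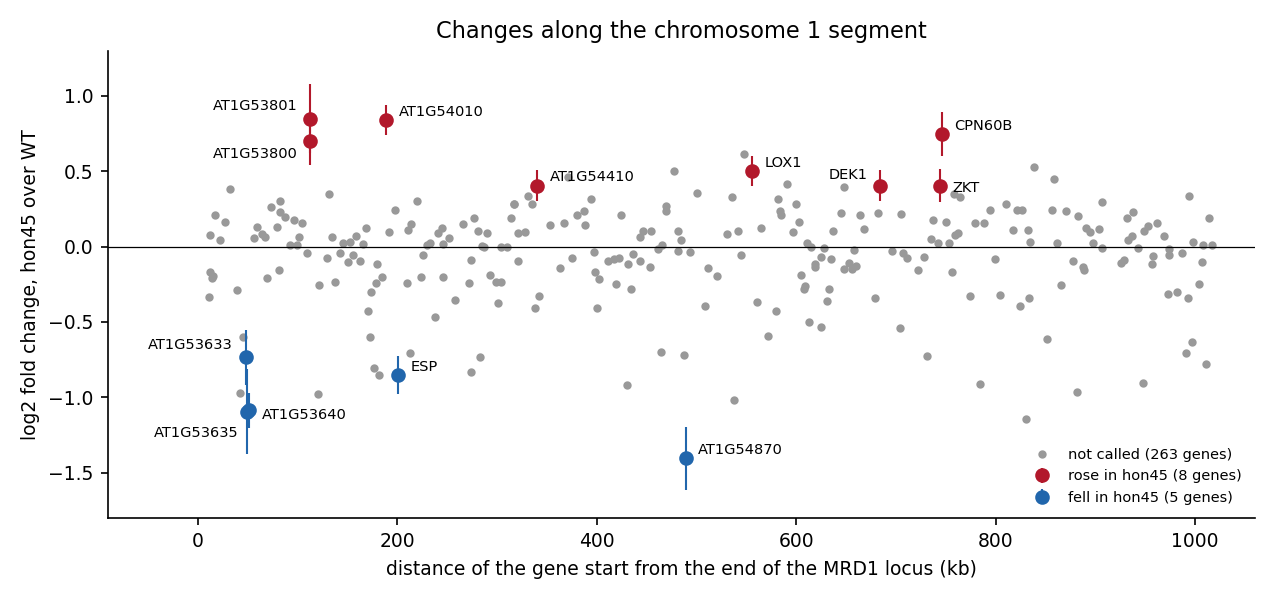
Log2 fold change of each of the 276 tested members (hon45 over WT) by distance of the gene start from the end of the MRD1 locus (kb), with SE bars on called genes. The 8 genes that rose (red) run from AT1G53800 and AT1G53801 to CPN60B, and 3 of the 5 that fell (blue) lie together near 50 kb.

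A run of neighbours close to the MRD1 end was lower in hon45. From AT1G53610 to AT1G53640, over 16.5 kb (chromosome 1, 20008996 to 20025461), all 6 tested members had log2 fold changes below 0, from -1.10 to -0.29, and 3 of them fell. Over all tested genes 44.7% had a log2 fold change above 0, and 1.63% were called lower in hon45. The run was picked out after its values were seen. It was not the longest run of 1 sign in the stretch, since the longest held 10 tested members, none of them called. None of the 6 genes has a name in RefSeq, and the files give them no function.

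AT1G53640 (20020885 to 20025461) had the smallest p of all members. It stood at 19.0 and 18.8 CPM in the hon45 libraries, against 44.8 and 35.4 CPM in the WT libraries. The WT libraries lay apart from each other, but both were far above hon45. The means were 18.9 ± 0.153 CPM in hon45 and 40.1 ± 6.63 CPM in WT (SD, n = 2 each), a log2 fold change of -1.09 (SE 0.12, edgeR QL adjusted p = 1.99e-05). Its FPKM, a value per kilobase of transcript, was 7.52 and 4.94 in hon45 against 14.4 and 11.7 in WT.

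The short genes just before it were expressed at lower levels. AT1G53635 (20019293 to 20019799) stood at 1.67 and 1.29 CPM in hon45 against 3.95 and 2.47 CPM in WT, a log2 fold change of -1.10 (SE 0.28, edgeR adjusted p = 0.0326). AT1G53633 (20017389 to 20017932) stood at 3.82 and 3.39 CPM in hon45 against 6.52 and 5.53 CPM in WT, a log2 fold change of -0.73 (SE 0.18, edgeR adjusted p = 0.0264). Both genes had hon45 libraries below both WT libraries. The calls did not hold without WT replicate 1 (edgeR adjusted p = 0.486 for AT1G53635 and 0.173 for AT1G53633) or without hon45 replicate 2 (0.224 and 0.253), and that of AT1G53633 was also lost without hon45 replicate 1 (0.0701).

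AT1G53625 (20014410 to 20014923), next in line, missed the threshold with 5.63 and 6.98 CPM in hon45 against 11.1 and 8.00 CPM in WT, a log2 difference of -0.60 (SE 0.17, edgeR adjusted p = 0.0519). AT1G53620 stood at 0.497 and 0.840 CPM in hon45 against 1.02 and 1.56 CPM in WT, and AT1G53610 at 1.89 and 1.94 CPM in hon45 against 2.72 and 1.995 CPM in WT. Neither was called, at edgeR adjusted p = 0.195 and 0.621. The run ended sharply: AT1G53645, the next gene, had 23.0 and 21.7 CPM in hon45 against 20.4 and 22.5 CPM in WT, so that the groups overlapped.

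**Figure D3:**
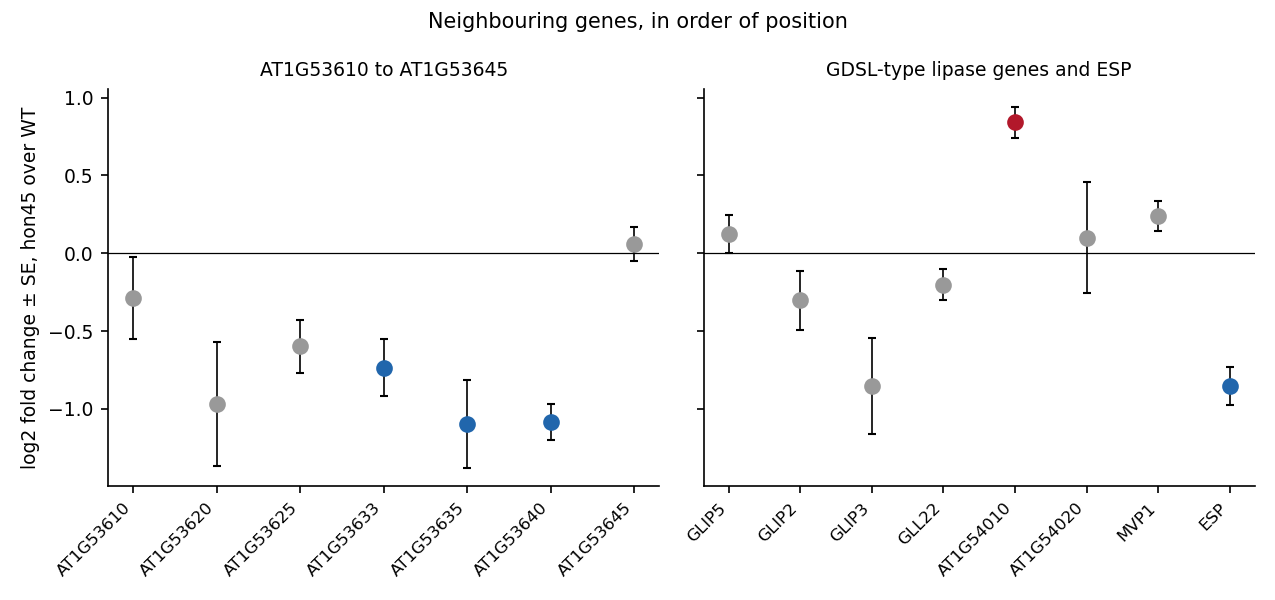
Log2 fold change of genes in order of position (hon45 over WT, with SE bars), for the run from AT1G53610 to AT1G53645 (left) and for the GDSL-type lipase genes and ESP (right). The right panel leaves out the tested members between GLIP5 and GLIP3 other than GLIP2, which lay below 0 and were not called. Red marks genes that rose, blue genes that fell and grey genes not called; the left panel lies below 0 up to AT1G53640, and the right panel holds both directions.

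A second cluster, about 170 to 200 kb past the MRD1 locus, carries genes for GDSL-type lipases and ESP, and there 1 gene rose and another fell, with 2 genes that were not called between them. GDSL-type lipases are a large plant family of secreted or endomembrane hydrolases named for a sequence motif around the active serine. ESP, the epithiospecifier protein, steers the breakdown of glucosinolates by myrosinase toward nitriles and epithionitriles in place of isothiocyanates. The list of 5 genes for this cluster was made with earlier results of these data known. In it 1 rose, 1 fell and 3 were not called, with a median log2 fold change of 0.10. Over all tested genes 4.1% were called and the median was -0.039.

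AT1G54010 (20158664 to 20160815), also called GLL23, rose. It stood at 86.2 and 89.0 CPM in hon45 against 46.0 and 51.7 CPM in WT, with no overlap between the genotypes. The log2 fold change was 0.84 (SE 0.10, edgeR QL adjusted p = 6.43e-05). GLL22, its neighbour on the MRD1 side, had 104.7 and 102 CPM in hon45 against 112 and 126 CPM in WT, a log2 difference of -0.20 that was not called (edgeR adjusted p = 0.291). These neighbours stood at similar levels in hon45, at 64.0 and 63.3 FPKM for AT1G54010 and 71.2 and 65.6 FPKM for GLL22, while in WT AT1G54010 had 30.9 and 35.8 FPKM and GLL22 76.0 and 87.6 FPKM.

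ESP (20170715 to 20173949) fell, to 8.34 and 8.45 CPM in hon45, against 15.0 and 15.3 CPM in WT. Its libraries agreed closely within each genotype, with means of 8.39 ± 0.0751 CPM in hon45 and 15.2 ± 0.236 CPM in WT (SD, n = 2 each). The log2 fold change was -0.85 (SE 0.12, edgeR QL adjusted p = 0.000689). MVP1, a GDSL-type protein needed for normal endoplasmic reticulum structure, lies between AT1G54010 and ESP and stood at 59.3 and 60.2 CPM in hon45 against 48.1 and 53.0 CPM in WT (log2 difference 0.24, edgeR adjusted p = 0.192). Without WT replicate 2 it passed at 0.31 (edgeR adjusted p = 0.0236). AT1G54020, the remaining gene of the list, was near 1 CPM in every library. Outside that list, the lipase genes GLIP5, GLIP2 and GLIP3 had log2 differences of 0.12, -0.30 and -0.85, none of them called (edgeR adjusted p = 0.651, 0.437 and 0.139), and GLIP3 was expressed at 0.962 to 2.57 CPM.

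The largest fall of any called member was that of AT1G54870 (20459006 to 20460647), which RefSeq does not name. It stood at 2.003 and 1.80 CPM in hon45 against 4.79 and 5.29 CPM in WT, a log2 fold change of -1.41 (SE 0.21, edgeR QL adjusted p = 0.000995). Its counts were 121 and 103 in hon45 against 259 and 337 in WT, so this fall rests on a low level in hon45. The FPKM values lay apart in the same way, at 1.31 and 1.49 in hon45 against 4.79 and 5.14 in WT. AT1G53640, AT1G54010, ESP and AT1G54870 were the 4 members whose calls held in every fit on counts that gave them a value, including each fit without 1 library.

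Among 8 genes for chloroplast and photosynthesis proteins 2 rose, none fell, and the median log2 fold change was 0.23, beside 2.48% higher and a median of -0.039 over all tested genes. CPN60B (20715563 to 20719196), a beta subunit of the chloroplast chaperonin that folds imported and newly made proteins such as the large subunit of Rubisco, stood at 102 and 104 CPM in hon45 against 47.0 and 75.5 CPM in WT. The hon45 libraries were close together and above WT, while the WT libraries differed widely. Its log2 fold change was 0.75 (SE 0.14, edgeR QL adjusted p = 0.00617), but 0.45 without WT replicate 1 and 1.14 without WT replicate 2, and the call was lost without hon45 replicate 2 (adjusted p = 0.109) and with DESeq2 (adjusted p = 0.167).

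ZKT, a chloroplast protein with a PDZ domain and a TPR region, is encoded next to CPN60B and overlaps it by RefSeq spans, so reads at their border may count for both. It stood at 71.9 and 72.5 CPM in hon45 against 48.5 and 60.6 CPM in WT, a log2 fold change of 0.40 (SE 0.11, edgeR adjusted p = 0.0389). This was the least stable call, lost in 6 of 11 other fits on counts, among them those without WT replicate 1 (0.25, adjusted p = 0.213), without hon45 replicate 1 (adjusted p = 0.137) and without hon45 replicate 2 (adjusted p = 0.361). TLP18.3, a thylakoid lumen protein that acts in photosystem II repair, stood at 302 and 323 CPM in hon45 against 239 and 281 CPM in WT and was not called (log2 difference 0.27, edgeR adjusted p = 0.209). It passed without WT replicate 2 (0.39, edgeR adjusted p = 0.00943). In WT replicate 1 RBCS1A was also low, with 3447 CPM of the library total, against 5422 and 5231 in the hon45 libraries and 4573 in WT replicate 2. The other shoot markers outside the stretch differed among themselves in that library: LHCB1.3 was also lowest there, at 11890, but LHCB2.1, at 5995, lay above both hon45 libraries, at 5919 and 5921. Both chloroplast genes were thus lowest in that library, and its part in their rises beyond the fits without it was not tested.

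Of 6 stress-response genes 1 rose and none fell, beside 2.48% higher and 1.63% lower of all tested genes. AT1G54410 (20309775 to 20310767), also named HIRD11, encodes a small dehydrin, a hydrophilic protein of the kind that accumulates on drying or cold. It stood at 222 and 231 CPM in hon45 against 169.5 and 173 CPM in WT, a log2 fold change of 0.41 (SE 0.10, edgeR QL adjusted p = 0.0271). The genotypes did not overlap, but the call was lost without hon45 replicate 1 (edgeR adjusted p = 0.107) and without hon45 replicate 2 (0.368). The other 5 lay between -0.34 and 0.09 on the log2 scale, among them RAP2.12, an ethylene-response-type factor that acts in the response to low oxygen, at 0.02.

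LOX1 was the called gene among 8 tested members of the cell wall and lipid enzyme list, beside 4.1% called over all tested genes. It encodes a 9-lipoxygenase, which adds oxygen to polyunsaturated fatty acids. LOX1 (20525708 to 20530273) stood at 72.5 and 72.2 CPM in hon45 against 54.3 and 48.1 CPM in WT, a log2 fold change of 0.50 (SE 0.10, edgeR QL adjusted p = 0.00718), which was lost without hon45 replicate 1 (edgeR adjusted p = 0.0729) and replicate 2 (0.189). PME1, a pectin methylesterase that trims methyl groups from cell wall pectin, stood at 53.6 and 52.5 CPM in hon45 against 39.1 and 44.2 CPM in WT (log2 difference 0.35, SE 0.10, edgeR adjusted p = 0.0543). PME1 passed with DESeq2 (adjusted p = 0.042) and without WT replicate 2 (edgeR adjusted p = 0.000701). AGP21, an arabinogalactan protein of the cell wall, stood at 116 and 109.5 CPM in hon45 against 154 and 131.5 CPM in WT (log2 difference -0.34, edgeR adjusted p = 0.0721), and it passed without WT replicate 2 (edgeR adjusted p = 0.000301).

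DEK1, a membrane-anchored calpain-type protease needed to form the epidermis, is in none of the lists and rose. It stood at 42.2 and 42.3 CPM in hon45 against 33.4 and 30.4 CPM in WT, a log2 fold change of 0.41 (SE 0.10, edgeR QL adjusted p = 0.0261). Without hon45 replicate 1 its adjusted p in that test was 0.124 and without hon45 replicate 2 it was 0.325. AT1G53800 (20081699 to 20084500) stood at 9.10 and 7.87 CPM in hon45 against 5.21 and 5.25 CPM in WT, a log2 fold change of 0.70 (SE 0.15, edgeR adjusted p = 0.0143). The lncRNA gene AT1G53801 shares its locus and stood at 4.15 and 3.32 CPM in hon45 against 1.98 and 2.17 CPM in WT, a log2 fold change of 0.85 (edgeR adjusted p = 0.0418). Reads of these overlapping genes cannot be told apart, and the FPKM files list AT1G53801 at or near 0 in all libraries, so 1 change may have been counted for both. Both calls were lost when either hon45 library was left out (edgeR adjusted p = 0.0949 and 0.066 for AT1G53800, 0.128 and 0.0706 for AT1G53801), and that of AT1G53801 also without WT replicate 1 (0.17).

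**Figure D4:**
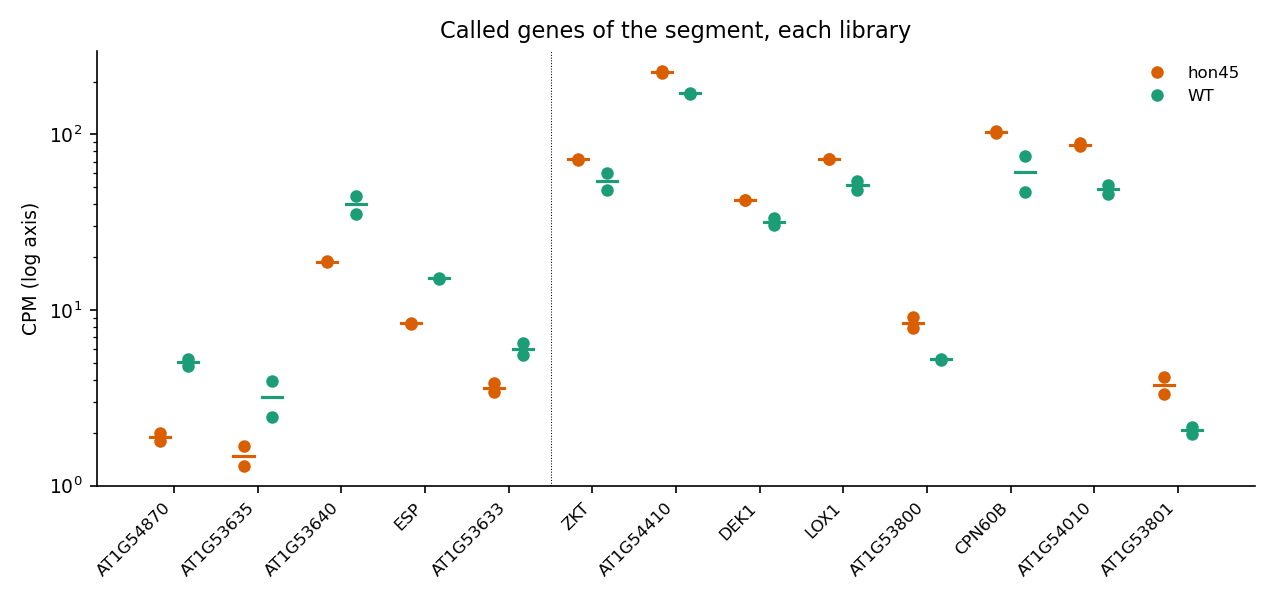
CPM (log axis) of the 13 called members in each library, with hon45 (orange) left of WT (green) and bars at the means. Genes left of the dotted line fell and genes right of it rose. In all 13, which were called on these same libraries, the genotypes do not overlap, as in 49.3% of all tested genes.

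The other gene lists of the stretch held no call. All 4 chromatin genes lay above 0 without passing, where 44.7% of all tested genes lay above 0. The histone reader ING2 stood at 0.28 (SE 0.13) and the histone variant gene GAMMA-H2AX at 0.06 (SE 0.10). HUB2, an E3 ligase that attaches ubiquitin to histone H2B, stood at 0.11 (SE 0.16). GAMMA-H2AX had 30.8 and 31.0 CPM in hon45 against 29.2 and 30.1 CPM in WT. HUB2 had 6.34 and 6.09 CPM in hon45 against 6.06 and 5.50 CPM in WT. The 6 genes of the general transcription machinery ran from -0.17 for TBP2, a TATA-binding protein, to 0.13, with GCT, a subunit of the Mediator kinase module, at 0.12 and the TFIID subunit gene TAF6B at 0.09.

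The 5 genes for RNA turnover and splicing ran from -0.13 for the splicing factor SCL33 to 0.21 for XRN4, the cytoplasmic exonuclease that degrades RNA from its 5′ end. ECT4, a reader of methylated adenosine in RNA, stood at 0.17. Among 8 transcription factor genes the smallest p was that of IDD7, a zinc finger factor, at 9.27 and 10.1 CPM in hon45 against 6.78 and 7.71 CPM in WT (log2 difference 0.42, edgeR adjusted p = 0.11, and 0.0283 without WT replicate 2). LAS, which promotes axillary meristems, had a log2 difference of 0.24 and NF-YC3, a partner of CONSTANS in flowering, of 0.11. All 5 tested kinase and receptor genes lay above 0, as did 44.7% of all tested genes. They ran from 0.09 to 0.28, with the brassinosteroid receptor BRL1 highest. MAP3KA, a MAP kinase kinase kinase, stood at 0.21 and the NIMA-related kinase NEK1 at 0.15.

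Of the 6 genes for protein degradation and autophagy, UPL1, a HECT-type ubiquitin ligase, followed 1 library: it had 63.7 and 52.9 CPM in hon45 against 59.6 and 35.4 CPM in WT. Without WT replicate 1 it passed at 0.72 (edgeR adjusted p = 8.98e-09) and without WT replicate 2 its log2 difference was -0.03. The proteasome subunit gene RPT1A stood at 0.18 and the autophagy gene ATG12A at -0.24. The transporters ran from -0.09 for the endosomal sodium-proton exchanger NHX5 to 0.45 for the cation exchanger CAX6, whose level was 1.07 to 1.85 CPM over all libraries, with the chloride channel CLC-F at 0.11. In total the 11 lists named 69 genes, 2 of which lay outside the stretch. Of the 67 tested 5 rose (7.46%) and 1 fell (1.49%), beside 2.48% higher and 1.63% lower of all tested genes. The lists were made with earlier results of these data known, so these shares are a description. CPN60B and ZKT, both among the rises, overlap by RefSeq spans and may share reads.

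Other members were close to the threshold. Among those at a mean of 5 CPM or more with the genotypes apart, AT1G55690, AT1G54820 and AT1G54460 had the largest differences above 0 that were not called, at log2 values of 0.53, 0.51 and 0.46 (edgeR adjusted p = 0.0701, 0.0771 and 0.0691). AT1G54820 had hon45 libraries close together, at 19.6 and 19.3 CPM, and WT libraries far apart, at 10.4 and 16.98 CPM, and without WT replicate 2 it passed at 0.91 (edgeR adjusted p = 3.76e-09). AT1G54460 also passed without WT replicate 2, at 0.46 (edgeR adjusted p = 0.044). On the other side AT1G54120 stood at 5.08 and 5.53 CPM in hon45 against 7.33 and 7.34 CPM in WT (log2 difference -0.47, edgeR adjusted p = 0.1), and AT1G55675 at -0.34, with edgeR adjusted p = 0.16 and 0.0103 without WT replicate 2. AT1G53625 passed without WT replicate 2 at -0.82 (edgeR adjusted p = 6.57e-05).

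Levels within the stretch spanned several orders of magnitude. PSAG, a subunit of photosystem I, had the highest, at 3784 and 3794 FPKM in hon45 against 3256 and 3765 FPKM in WT. AGP21 followed at 592 and 545 FPKM in hon45 against 746 and 663 FPKM in WT, and AT1G56045 at 573 and 527 FPKM in hon45 against 719 and 627 FPKM in WT. AT1G54410 and LOS1, which encodes translation elongation factor 2, came next. LOS1 had 411 and 417 FPKM in hon45 against 407 and 413 FPKM in WT. PSAG and LOS1 differed little in counts, at log2 differences of 0.11 and 0.03 (edgeR adjusted p = 0.777 and 0.94). AT1G56045 stood at -0.34 (edgeR adjusted p = 0.0735, and 8.04e-05 without WT replicate 2).

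The first and last 2 tested members of the stretch were not called with all 4 libraries, although the first 200 kb held 7 of the 13 calls. AT1G53540 and AT1G53541, the first tested members, had log2 differences of -0.34 (SE 0.37) and -0.17 (SE 0.33) at about 1 CPM, and NOP56, a nucleolar protein of ribosomal RNA modification, and AT1G56120, the last, of 0.19 and 0.01. NOP56 passed without WT replicate 2 at 0.39 (edgeR adjusted p = 0.00264). Just outside, between the MRD1 locus and the first member, MPK18, a MAP kinase, rose by 0.39 on the log2 scale (41.6 and 44.7 CPM in hon45 against 33.4 and 32.3 CPM in WT, edgeR adjusted p = 0.0298), while FAP3 and AT1G53530 stood at -0.01 and -0.31 and were not called. Past the far end, AT1G56130 stood at -0.18 and AT1G56140 at -0.02.

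The members include 275 protein-coding genes, 20 pseudogenes, 3 miRNA genes, 2 lncRNA genes, 2 tRNA genes, 1 other noncoding RNA gene and 5 without a RefSeq entry. Of the 32 members not tested 25 had no row in the count table and 7 had too few counts. Among the 276 tested members 73 overlap another counted gene, as do 9287 of all 29226 tested genes. The 73 include 6 of the 13 called, namely AT1G53800, AT1G53801, LOX1, DEK1, ZKT and CPN60B, all of them rises. With overlapping genes left out 11 of 203 members were called (5.42%), against 5.18% of all genes tested that way. Of these 11 members 5 rose and 6 fell. Rises were thus 45.5% of the calls in the stretch, against 61.9% over all genes in that fit. A group of neighbours with paired spans and counts shows a further limit. AT1G53880 and AT1G53900 span 3417 bases each. AT1G53880 had 1716 and 1702 counts in hon45 against 1556 and 1804 in WT, and AT1G53900 had 2136 and 2049 in hon45 against 1804 and 2196 in WT. The FPKM files list both at 0 in every library. AT1G53870 and AT1G53890 had 2437 to 3263 and 2386 to 3192 counts over all libraries, and AT1G53885 and AT1G53903 had 1199 to 1572 and 1172 to 1523. These genes may be close copies whose reads the count table and the FPKM files assigned differently, so their values are uncertain, and none was called.

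On FPKM, limma-trend on log2(FPKM + 1) called 3 of 207 tested members (1.45%), against 0.621% of the 19493 genes tested that way. These were AT1G54870 (-1.32, adjusted p = 0.012), AT1G54010 (0.92, adjusted p = 0.0183) and ESP (-0.84, adjusted p = 0.0194), all among the 13. AT1G53640 stood at -0.98 (limma-trend adjusted p = 0.0749). All 12 called members that could be tested on FPKM differed in the same direction there, in values made from the same libraries.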

How the data were processed

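RNA-seq of 2 hon45 and 2 WT libraries was analysed. The 3 chromatin immunoprecipitation samples were not analysed here. The authors deposited raw counts per gene in 1 table and FPKM values with a locus per gene in 1 file per library, per the file headers. The submitters' processing notes list HISAT2, edgeR, Bowtie2, deepTools and TAIR10. How reads were counted, and whether by strand, is not given in the sources used here. Positions follow the loci in the FPKM files (TAIR10), counted from 1. Names and overlaps come from RefSeq (TAIR10.1), which held all 32548 counted genes.

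Counts were filtered with filterByExpr, scaled by TMM and tested with edgeR 4.0.16 (glmQLFit with legacy = FALSE, glmQLFTest, R 4.3.3), hon45 over WT, with Benjamini-Hochberg adjustment over 29226 genes and 2 residual degrees of freedom. "Rose" and "fell" mean an adjusted p under 0.05. Each SE was derived from the F statistic. The test was checked on simulated counts. Alternatives were RLE factors, library totals, other filters, DESeq2 1.42.0, a replicate block, each library left out, overlapping genes left out, and limma-trend (limma 3.58.1) on FPKM of at least 1 in 2 libraries, whose pseudocount understates changes of low genes. The older quasi-likelihood method was added after seeing the data. Windows needed 50 tested genes.

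The stretch, lists and rules were chosen with earlier results of these data known. Named are all called members, the 3 largest differences each way that were not called (at 5 CPM or more, genotypes apart), the first and last 2 tested members, the 5 highest by FPKM, up to 3 members of each list by smallest p, and HON5 with the MRD1 locus. The other genes of the run by AT1G53640, the genes just outside the stretch, the neighbours from AT1G53870 to AT1G53903, GLIP2, GLIP3, GLIP5, GLL22, AT1G54020 and RAP2.12 were named after their values were seen.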

Additional observations from a re-analysis of the deposited data

How the results depend on the processing

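The count of 13 called members was 20 with a replicate block, 7 with a filter of 5 CPM, 6 at an adjusted p under 0.01, 3 with a log2 fold change of 1 or more either way, 3 on log2(FPKM + 1) and 3 on log2(FPKM + 0.1). It was 0 by limma-trend without an FPKM filter, where 50 members had an unadjusted p under 0.05. Leaving out 1 library gave 4 to 41. Deviations from the genotype means in hon45 replicate 1 and WT replicate 1 had a correlation of 0.062, and whether the libraries were paired is not known. A replicate block gave 1767 calls over all genes. Over all genes the 1199 calls became 724 with the 5 CPM filter, 325 at an adjusted p under 0.01, 107 at a log2 fold change of at least 1, 121 and 110 on FPKM and 7 without an FPKM filter, and 119 to 3836 without 1 library. The share of rises among whole-table calls was 60.4%, against 73.3% with DESeq2, 47.7% with the 5 CPM filter, 42.3% and 31.1% without hon45 replicate 1 and 2, and 33.1% on log2(FPKM + 1).

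The called share of the stretch stood 0.776 percentage points above the median window, and -0.276 to 1.48 points from it under the alternatives. Windows laid from the start of the chromosome or as long as the stretch ranked it 7 and 9, overlapping genes left out 7, an adjusted p under 0.01 3 and FPKM 5. With RLE factors 19 members were called and with library totals 10, and DESeq2 gave 4 of the 13 no adjusted p. Differences near 0 changed sign for AT1G56120 and LOS1. AT1G56120 ran from -0.10 to 0.15 over fits without 1 library (-0.0041 without WT replicate 2) and stood at -0.066 on unfiltered FPKM. LOS1 stood at -0.0064 with the 5 CPM filter and ran from -0.0049 to 0.10 over fits without 1 library. Larger differences changed sign for UPL1 and CAX6. UPL1 stood at 0.30 with all 4 libraries, -0.029 without WT replicate 2 and 0.72 without WT replicate 1. CAX6 stood at 0.45 with all 4 libraries on counts and -0.085 on unfiltered FPKM. None of these genes was called where the sign changed. The cause of these shifts was not tested.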
